A study of Mus musculus with 12 samples.

Results

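The genes of glucose breakdown and of the response to low oxygen were examined in Ba/F3, a pro-B line of the mouse whose growth normally needs the cytokine IL-3. The set was a fixed list of 41 symbols, and a row of the count table was a member when its gene name was on the list. A row was found for 40 symbols, and Aldoa had a second entry, which gave 41 rows of the 56748 genes in the table; 1 symbol, Mxd2, was not analysed here. The list held 4 transporters, 18 enzymes of glycolysis and lactate formation, 4 regulators of flux, 2 subunits of hypoxia-inducible factor (HIF) and 13 HIF targets outside glycolysis. All cells carried NRAS G12D, an activated RAS protein. Each of 4 groups of 3 libraries also received 1 construct: ZsGreen alone, a green fluorescent protein that served as the control; wild-type ETV6 (WT); P214L, a mutant ETV6; or I209S P214L, with both changes. The protein is a transcriptional repressor of the ETS family, and each ETV6 construct was followed by an internal ribosome entry site and ZsGreen. The P214L change creates a nuclear export sequence, and the I209S change was added to break it. Cells of all 4 groups went by sorting into IL-3-free medium on day 0, got fresh medium on day 2 and gave RNA on day 3. Whether replicates came from separate cultures or clones is not stated, so p-values measure the spread between these libraries, which may be technical.

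Glycolysis takes glucose up through SLC2A carriers and splits it to pyruvate, which is either reduced to lactate and exported through SLC16A carriers or oxidized in mitochondria. HIF is a transcription factor whose alpha subunit is hydroxylated by EGLN enzymes and destroyed when oxygen is plentiful. It is known to raise the transcripts of many glycolytic enzymes together with genes for mitophagy, blood vessel growth, oxidative protein folding and chromatin demethylation, and in cytokine-dependent blood cells glucose uptake and glycolysis are also held up by growth factor signalling.

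The libraries held 14301683 to 18607595 assigned counts, and levels are given as CPM, the usual count unit adjusted for library size, here scaled with edgeR's TMM factors. The first principal component of all tested genes, with 40.8% of the variance, separated ZsGreen and P214L from WT and I209S P214L, while ZsGreen 1 stood apart on the second (14.2%). Transcripts of Etv6 were at 77.9 to 87.4 CPM in ZsGreen and at 88.6 to 122 CPM over the 9 libraries with an ETV6 construct, and the increase was called in all 3 groups. Among 13 B-lineage markers, Dntt, Igll1, Il7r, Rag1 and Vpreb2 had no count in any library, and the summed level of the list was 8.54 to 16.1 CPM in ZsGreen, so B-lineage transcripts were absent or low. The 4 T-cell markers summed to at most 1.12 CPM and the 4 fibroblast markers to at most 0.508 CPM in any library. Fewer cells of a kind and less RNA per cell cannot be told apart in these bulk libraries.

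With wild-type ETV6, transcripts for the glucose carrier Slc2a3 and for the HIF targets Ero1a, Bhlhe40, Ndrg1 and Kdm3a rose, while transcripts for the lactate carrier Slc16a1, for the enzymes Pgk1, Ldha, Tpi1, Hk3 and Hk2, and for the flux regulators Pdk1, Pdk3 and Pfkfb3 fell. The enzymes Hk1, Pkm, Gpi1 and Aldoa were also called higher, and Slc2a1, Pfkm and Pfkp lower. The called changes ranged from 2.78-fold up for Ero1a to 2.06-fold down for Slc16a1. Of 36 members that passed the filter on low counts, 9 were called higher and 12 lower against ZsGreen at an adjusted p under 0.05 (edgeR's quasi-likelihood test), where 37.7% of all 14794 tested genes were called (19.5% higher and 18.2% lower). Among the 21 tested transporters and enzymes 5 rose and 9 fell, with a median log2 change of -0.28. All 4 calls among the 10 tested HIF targets outside glycolysis were increases, with a median of 0.19; their share called, 40%, was near that of all genes. The median over all tested genes was 0.03. Of the 4 flux regulators, 3 fell and none rose.

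With P214L, Ero1a, Bhlhe40, the mutase gene Pgam1 and the isomerase gene Gpi1 rose, and Ndrg1 and Slc2a3 fell. These were 4 members called higher and 2 lower of 36, where 5.08% of all tested genes were called (3.47% higher and 1.61% lower). Among the transporters and enzymes 2 rose and 1 fell with a median log2 change of 0.01, and among the HIF targets outside glycolysis 2 rose and 1 fell with a median of 0.09. None of the 4 flux regulators was called. At an unadjusted p under 0.05 the count over the set was 12 of 36 members, where 17.9% of all tested genes passed.

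With I209S P214L, Slc2a3, Ero1a, Bhlhe40, Ndrg1, Bnip3 and Kdm3a rose together with Hk1, Pkm and Aldoa, and Slc16a1, Pgk1, Ldha, Tpi1, Pdk1, Pdk3 and Pfkfb3 fell. Hk2, Hk3, Pfkl, Pfkm, Pfkp and Aldoc were also called lower. Against ZsGreen, 9 members were called higher and 13 lower of 36, where 41.5% of all tested genes were called (20.8% higher and 20.7% lower). Of the 21 transporters and enzymes 4 rose and 10 fell (median log2 change -0.33), of the 10 HIF targets outside glycolysis 5 rose and none fell (median 0.41), and of the 4 flux regulators 3 fell. These 3 comparisons share the ZsGreen libraries, so their values are set side by side and no overlap between them is given as a result.

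The constructs were also compared with each other, which is the question the I209S change was made for. P214L against WT gave 10 members higher and 7 lower, where 29.2% of all tested genes were called (14.6% higher and 14.6% lower): transporters and enzymes were 7 higher and 3 lower (median log2 difference 0.33), HIF targets outside glycolysis 0 higher and 4 lower (median -0.20). I209S P214L against P214L gave 7 higher and 15 lower, where 33.0% of all tested genes were called (15.9% higher and 17.1% lower), with 3 higher and 12 lower among transporters and enzymes (median -0.45) and 4 higher and none lower among HIF targets outside glycolysis (median 0.19). No member was called between I209S P214L and WT by edgeR, DESeq2 or limma-voom, where 0.0338% of all tested genes, 5 in number, were called by edgeR (0.0135% higher and 0.0203% lower). At an unadjusted p under 0.05, which 3.46% of all tested genes passed, there were 2 such members, Aldoc and Ero1a, named after their values were seen. The 95% interval of the difference between I209S P214L and WT was -0.01 to 0.23 on the log2 scale for Slc2a3, -0.21 to 0.05 for Ndrg1, -0.19 to 0.05 for Pgk1 and -0.20 to 0.07 for Ldha, and 0.06 to 0.35 for Ero1a, whose libraries did not overlap. Without a filter on low counts 1 member, Gapdh, was called between I209S P214L and WT. The libraries of the groups did not overlap for 18 of the 36 tested members in WT against ZsGreen (46.2% of all tested genes), 15 in P214L (25.7%) and 19 in I209S P214L (47.8%). The same count was 22 for P214L against WT (45.4%), 5 for I209S P214L against WT (8.33%) and 27 for I209S P214L against P214L (48.2%).

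**Figure D1:**
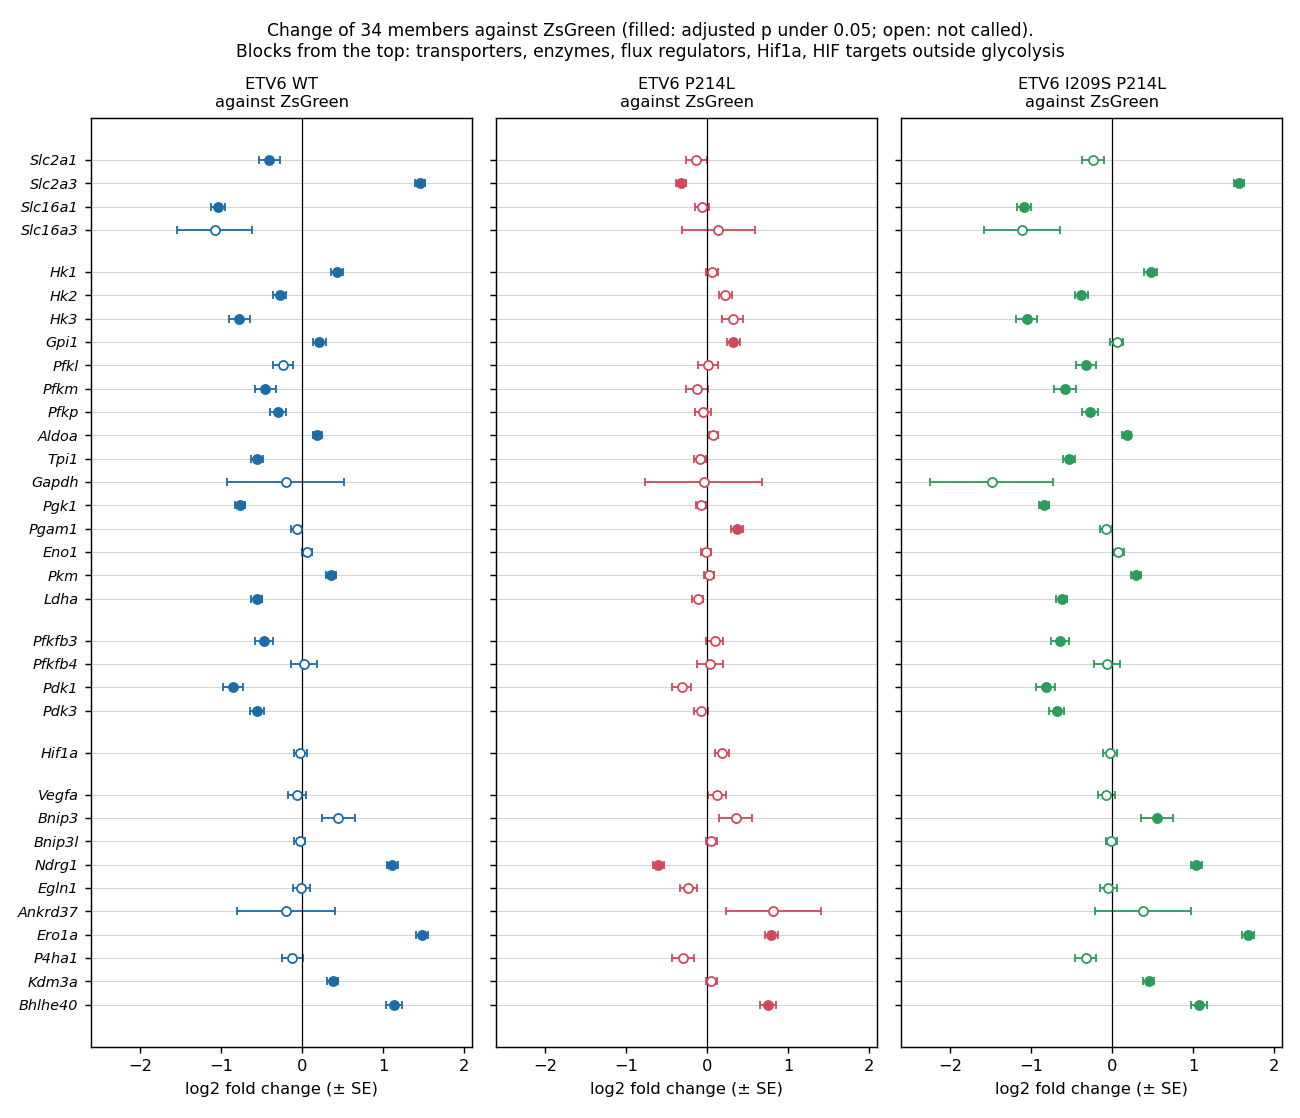
Log2 fold change against ZsGreen (x axis, with SE) of 34 tested members in WT, P214L and I209S P214L; filled points are called at an adjusted p under 0.05 and open points are not. Aldoc and the second Aldoa entry are left out for their low counts. Slc2a3 lies at 1.46 and 1.57 in the outer panels and at -0.32 in the middle one, while Pgk1 lies at -0.77, -0.08 and -0.84.

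The promoters of 6 members that changed in WT are shown here because members of opposite direction carry the same HIF letters. The sequences are from RefSeq (GRCm38.p6, an older build than that of the count table), which matched 35 of the 41 symbols with 51 windows of 250 bases before to 50 after a start. No window was found for Slc2a3, Bhlhe40 and Ndrg1, which rose in WT (log2 1.46, 1.14 and 1.12), or for Bnip3l, Epas1 and Mxd2. Each line gives the 250 bases before the most upstream start, 5′ to 3′ on the strand of the gene, with ACGTG or GCGTG on either strand in capitals. The windows lie at chr14:45318573-45318822 (minus strand) for Ero1a and chr6:71632918-71633167 (minus) for Kdm3a, which rose in WT, and at chrX:106186850-106187099 (plus) for Pgk1, chr7:46845554-46845803 (plus) for Ldha, chr3:104638414-104638663 (plus) for Slc16a1 and chr2:71872974-71873223 (plus) for Pdk1, which fell.
Ero1a: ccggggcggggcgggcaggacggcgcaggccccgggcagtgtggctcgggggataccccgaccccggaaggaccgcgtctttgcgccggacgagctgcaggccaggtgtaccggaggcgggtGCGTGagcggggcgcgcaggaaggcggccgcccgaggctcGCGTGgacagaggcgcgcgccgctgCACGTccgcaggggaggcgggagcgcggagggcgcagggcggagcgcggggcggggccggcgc
Kdm3a: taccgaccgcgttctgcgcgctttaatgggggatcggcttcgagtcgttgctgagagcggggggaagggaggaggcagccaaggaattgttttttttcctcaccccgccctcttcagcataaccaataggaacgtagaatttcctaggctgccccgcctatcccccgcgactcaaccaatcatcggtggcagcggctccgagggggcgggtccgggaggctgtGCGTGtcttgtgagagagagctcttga
Pgk1: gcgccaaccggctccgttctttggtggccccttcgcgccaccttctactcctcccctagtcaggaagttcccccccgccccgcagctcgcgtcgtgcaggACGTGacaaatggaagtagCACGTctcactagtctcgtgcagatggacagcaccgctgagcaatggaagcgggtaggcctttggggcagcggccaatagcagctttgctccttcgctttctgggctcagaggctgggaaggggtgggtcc
Ldha: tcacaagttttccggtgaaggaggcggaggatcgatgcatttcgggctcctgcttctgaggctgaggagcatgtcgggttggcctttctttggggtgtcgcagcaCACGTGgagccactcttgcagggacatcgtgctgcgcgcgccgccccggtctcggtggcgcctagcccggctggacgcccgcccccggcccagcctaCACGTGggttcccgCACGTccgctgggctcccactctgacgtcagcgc
Slc16a1: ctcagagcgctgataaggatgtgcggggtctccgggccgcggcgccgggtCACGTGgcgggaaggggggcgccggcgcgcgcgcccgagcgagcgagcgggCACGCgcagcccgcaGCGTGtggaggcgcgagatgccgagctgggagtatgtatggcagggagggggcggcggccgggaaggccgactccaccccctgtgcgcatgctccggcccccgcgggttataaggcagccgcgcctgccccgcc
Pdk1: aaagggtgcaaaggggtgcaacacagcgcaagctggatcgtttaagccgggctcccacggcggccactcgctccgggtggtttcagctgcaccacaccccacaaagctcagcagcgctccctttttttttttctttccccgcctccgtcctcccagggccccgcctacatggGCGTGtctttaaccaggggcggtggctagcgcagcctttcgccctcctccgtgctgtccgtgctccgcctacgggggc
With each strand counted, the letters occurred 3 times in the Ero1a stretch and 1 time in that of Kdm3a, against 2 times for Pgk1, 5 for Ldha, 4 for Slc16a1 and 1 for Pdk1. The palindrome CACGTG, the E-box, holds ACGTG on both strands and lies in the stretches of Ldha and Slc16a1.

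ACGTG or GCGTG was present in 78.4% of the 51 member windows and in 43.8% of all 32851 RefSeq windows. The wider set includes genes not tested here. Among tested genes the share of windows was 58.8% for those that rose in WT, 64.2% for those that fell and 59.6% for those not called. Among members, counted in the same way, the letters stood in 6 of 12 windows (50%) of the 6 matched genes that rose, 15 of 18 (83.3%) of the 12 that fell and 16 of 17 (94.1%) of the 13 not called. Counted by gene, with at least 1 window holding the letters, the classes were nearly alike. They were 5 of the 6 that rose (not Gpi1), 11 of the 12 that fell (not Tpi1) and all 13 not called. The unmatched Slc2a3, Ndrg1 and Bhlhe40, which rose, are in none of these counts. The letters CGGAAG, a longer form of the ETS core GGAA, were also searched on both strands. The shorter GGAA was not counted. With both strands read, it lies in every printed stretch, of members that rose and of members that fell. CGGAAG stood in 5 of 12 windows (41.7%) of the members that rose, 1 each for Ero1a, Gpi1, Hk1, Kdm3a and Pkm. It stood in 0 of 18 windows of those that fell and in 2 of 17 (11.8%) of those not called. Over all tested genes the order was the other way, with CGGAAG in 28.9% of the windows of genes that rose and in 34.5% of those that fell, and in 16.9% of all windows. A match is a string of letters, and binding was not measured.

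Levels per kilobase of gene length allow genes to be compared only as far as the annotated length holds for these cells. They ranged widely over the set. Over all 12 libraries Aldoa was highest at 367 CPM per kilobase, followed by Pkm at 327, Pgk1 at 244, Ldha at 196 and Gpi1 at 118. The highest HIF target outside glycolysis was Ndrg1 at 49.2 CPM per kilobase, close to Slc2a3 at 47.6, while Hif1a itself stood at 24.5. Slc16a3, Ankrd37, Aldoc and the second Aldoa entry were all under 1 CPM per kilobase. The 5 listed genes Eno2, Ldhb, Epas1, P4ha2 and Egln3 did not pass the filter on low counts. They encode the neuronal enolase, the heart-type lactate dehydrogenase subunit, the HIF-2 alpha subunit, a collagen prolyl hydroxylase and an oxygen sensor. Egln3, usually a strong HIF target, had a count of 0 in every library, and 3 counts in a group would correspond to 0.0569 to 0.0643 CPM, an upper limit for counting error only.

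**Figure D2:**
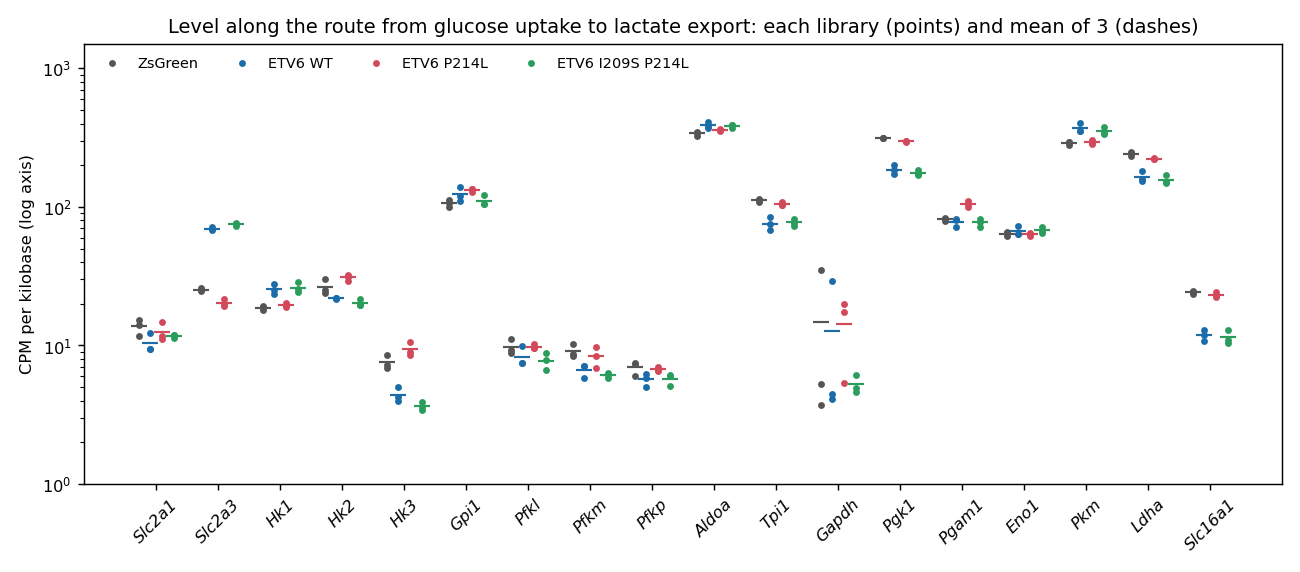
Level in CPM per kilobase (log axis) of the genes along the route from glucose uptake to lactate export, each library as a point and the mean of 3 libraries as a dash, coloured by group. WT and I209S P214L lie above ZsGreen and P214L at Slc2a3 and below them at Tpi1, Pgk1, Ldha and Slc16a1; Gapdh scatters over 15.5 to 144.8 CPM before division by length.

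Slc2a3, a high-affinity glucose carrier (mm39 chr6:122704768-122778599, minus strand), was at 182, 180.1 and 188 CPM in ZsGreen 1, 2 and 3, at 518, 495 and 499.8 in WT, at 145, 139 and 157 in P214L and at 530.0, 557 and 543 in I209S P214L. The WT and I209S P214L libraries were all far above ZsGreen and the P214L libraries all below it, with no overlap. The log2 change was 1.46 (SE 0.062, adjusted p = 7.18e-12) in WT and 1.57 (SE 0.062, adjusted p = 2.35e-12) in I209S P214L. In P214L the gene fell by 0.32 on the log2 scale (adjusted p = 0.00413), which put it 3.43-fold under WT (adjusted p = 1.12e-12).

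Slc2a1, the widespread basal glucose carrier, was at 53.97, 49.4 and 40.9 CPM in ZsGreen, 43.2, 32.8 and 33.02 in WT, 51.6, 40.8 and 39.2 in P214L and 41.5, 41.4 and 39.6 in I209S P214L. The groups overlapped in every pair of them. The fall in WT (log2 -0.40, adjusted p = 0.0206) was lost without ZsGreen 1, WT 2 or WT 3, with an adjusted p up to 0.0977, and neither mutant was called (log2 -0.13 and -0.24), though I209S P214L was without ZsGreen 3 (adjusted p = 0.047). The pair of carriers thus changed in make-up. Slc2a3 made up 65.0% ± 3.61 (SD, n = 3) of their summed counts per kilobase in ZsGreen, 87.1% ± 1.54 in WT, 61.9% ± 4.18 in P214L and 86.6% ± 0.418 in I209S P214L. The sum of both was 39.1 ± 1.47 CPM per kilobase in ZsGreen and 80.0 ± 3.35 in WT, a 2.05-fold difference without overlap, against 32.8 ± 1.99 in P214L and 86.7 ± 1.93 in I209S P214L.

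Slc16a1, the carrier that exports lactate with a proton (chr3:104545984-104565778, plus strand), was at 109.7, 108 and 105 CPM in ZsGreen, 57.02, 52.3 and 47.9 in WT, 102, 107 and 99.8 in P214L and 57.5, 45.9 and 48.2 in I209S P214L. WT and I209S P214L libraries lay below all of the others, and P214L overlapped ZsGreen. The gene fell by 1.04 in WT (SE 0.088, adjusted p = 4.54e-08) and by 1.09 in I209S P214L (adjusted p = 2.06e-08) on the log2 scale. In P214L its log2 change was -0.07 (95% interval -0.24 to 0.10). Slc16a3, the HIF-induced lactate exporter, was at 1.35, 3.60 and 6.25 CPM in ZsGreen, 1.65, 2.05 and 1.60 in WT, 3.26, 5.49 and 3.53 in P214L and 1.18, 2.37 and 1.66 in I209S P214L. It was low everywhere and spread widely in ZsGreen, and it overlaps the abundant Csnk1d on the opposite strand, so its reads cannot be assigned with certainty. Its only call, I209S P214L against P214L (log2 -1.25, adjusted p = 0.0493), was lost in 13 of 20 other settings, among them without WT 1, 2 or 3, any P214L library, ZsGreen 2, or I209S P214L 1 or 3 (adjusted p up to 0.209). P214L against WT (log2 1.21, adjusted p = 0.0594) became a call in 7 of 20, among them DESeq2, the replicate block, and without ZsGreen 1, ZsGreen 3 or I209S P214L 1 (adjusted p down to 0.00875). I209S P214L against ZsGreen (log2 -1.11) became one in 3, with DESeq2 and without ZsGreen 1 or I209S P214L 2, and WT against ZsGreen (log2 -1.08) in 1, without ZsGreen 1.

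**Figure D3:**
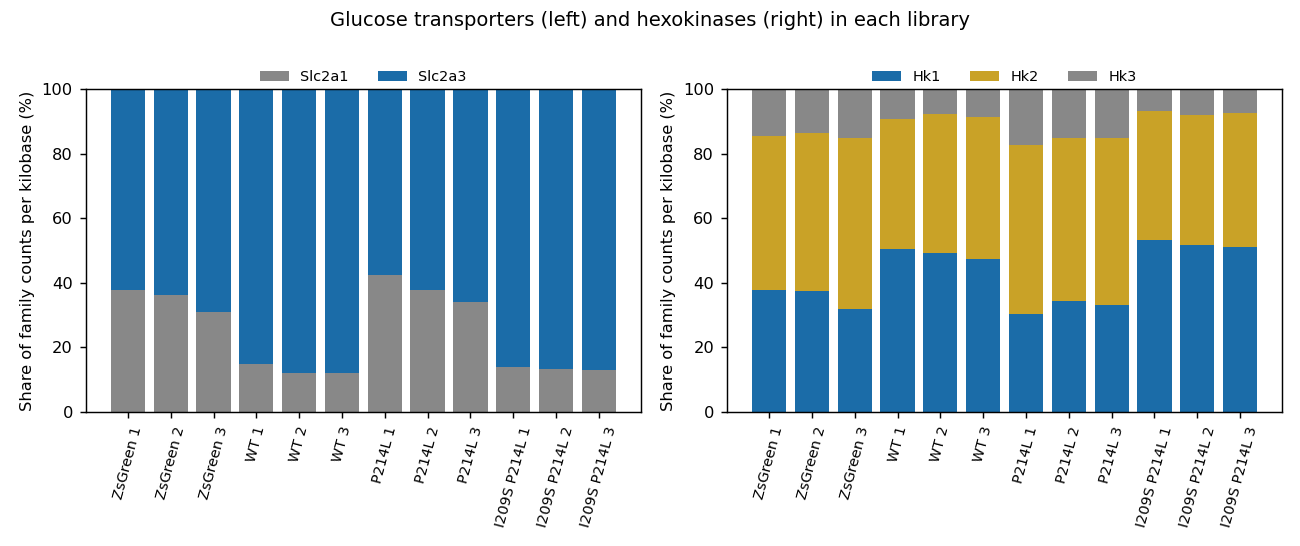
Share of summed counts per kilobase (y axis, %) of 2 glucose carriers (left) and 3 hexokinases (right) in each of the 12 libraries. Slc2a3 takes 85.3% to 88.0% in the WT libraries and 62.1% to 69.0% in ZsGreen, and Hk1 takes 47.4% to 50.6% and 31.9% to 37.7%.

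The 3 hexokinases, which trap glucose in the cell by phosphorylating it, did not move together. Hk1, the housekeeping form, was at 162, 165 and 154 CPM in ZsGreen and 235, 213.97 and 199.7 in WT, and rose there and in I209S P214L (log2 0.43 and 0.48, adjusted p = 0.000176 and 6.18e-05). Hk2, the inducible form and a HIF target, was at 144, 151 and 179 CPM in ZsGreen, 131, 131 and 129.8 in WT, 194, 173 and 187 in P214L and 129, 118 and 117 in I209S P214L. Its WT and I209S P214L libraries were all below those of ZsGreen and P214L. Hk2 fell by 0.28 in WT (adjusted p = 0.0105, 0.0566 without ZsGreen 3) and by 0.38 in I209S P214L (adjusted p = 0.000869) on the log2 scale. In P214L it was not called (log2 0.22), though it was without ZsGreen 3.

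Hk3, a hexokinase best known from myeloid cells, was at 26.6, 25.4 and 31.2 CPM in ZsGreen, 18.6, 14.6 and 15.6 in WT, 38.9, 31.4 and 33.3 in P214L and 13.2, 14.4 and 12.5 in I209S P214L. The P214L libraries were all above ZsGreen and the other ETV6 libraries all below it. Hk3 fell by 0.77 in WT (adjusted p = 0.000123) and by 1.06 in I209S P214L (adjusted p = 4.33e-06) on the log2 scale; in P214L its log2 change was 0.32 (adjusted p = 0.185). The summed markers of neutrophils and monocytes moved beside it: the 7 markers summed to 21.4 to 31.6 CPM in ZsGreen, 2.38 to 3.13 in WT, 74.4 to 115 in P214L and 2.09 to 3.56 in I209S P214L, with Ly6g at 0 throughout. Lyz2, S100a8, S100a9 and Mpo carried the sums. Not all markers followed them: in the same order of groups, Csf1r had means of 0.280, 0.733, 0.388 and 0.799 CPM, and Elane of 0, 0.0355, 0 and 0.405. The 5 erythroid markers summed to 76.3 to 78.2, 237 to 332, 51.1 to 86.5 and 241 to 377 CPM in the same order, and the 5 mast cell markers to 4.13 to 4.80, 1.28 to 2.82, 5.26 to 5.96 and 0.483 to 1.72. Within the erythroid list Klf1 went against the sum, with means of 41.0, 24.1, 40.9 and 19.1 CPM. Within the mast cell list Ms4a2 had means of 3.51, 1.22, 3.69 and 0.503 CPM. Cpa3 was not lower in WT than in ZsGreen, with means of 0.824, 0.834, 1.69 and 0.419 CPM. Kit, Fcer1a and Mcpt8 were at 0.392 CPM at most in any library. The part of these cell programmes in the changes of the set was not tested. Hk1 made up 35.7% ± 3.31 (SD, n = 3) of hexokinase counts per kilobase in ZsGreen and 49.1% ± 1.61 in WT, and Hk3 14.3% ± 0.793 and 8.53% ± 0.743. The summed level of all 3 hexokinases was 52.8 ± 3.30 CPM per kilobase in ZsGreen and 51.6 ± 2.61 in WT, with overlap.

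Below hexokinase, the 3 phosphofructokinase genes, which make the committed step, gave calls in 1 direction. Pfkm was at 34.2, 27.9 and 29.2 CPM in ZsGreen, 23.7, 19.4 and 23.7 in WT, 28.2, 32.4 and 23.01 in P214L and 21.2, 19.4 and 20.3 in I209S P214L. WT and I209S P214L did not overlap ZsGreen, and P214L did. Pfkm fell by 0.45 in WT (adjusted p = 0.012, 0.075 without WT 2) and by 0.58 in I209S P214L (adjusted p = 0.00186) on the log2 scale. Pfkp fell in both as well (log2 -0.29 and -0.27), with overlapping libraries. Its call in WT was lost without ZsGreen 2, ZsGreen 3 or WT 3 (adjusted p up to 0.117), and that in I209S P214L with library totals in place of TMM factors and without ZsGreen 2, ZsGreen 3 or I209S P214L 2 (adjusted p up to 0.146). Pfkl fell in I209S P214L alone by 0.33 (adjusted p = 0.0424), a call lost with library totals in place of TMM factors and without ZsGreen 2 or I209S P214L 2 or 3 (adjusted p up to 0.189); in WT its log2 change was -0.24. Pfkm overlaps Senp1 and Pfkp overlaps Pitrm1 on the opposite strand, both with counts of like or larger size, and Senp1 and Pitrm1 themselves were lower in WT (log2 -0.57 and -0.43). Without a known strand setting these reads cannot be told apart. Summed over the 3 genes, WT stood at 0.798 and I209S P214L at 0.760 times the ZsGreen level per kilobase, both without overlap, and P214L at 0.963 times with overlap.

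Gpi1, glucose-6-phosphate isomerase, and Aldoa gave small changes. Gpi1 was called higher in P214L (log2 0.32, adjusted p = 0.0242) and in WT (0.21, adjusted p = 0.047). The first call was lost without ZsGreen 1, ZsGreen 3 or any P214L library (adjusted p up to 0.102), and the second in 12 of 20 other settings, among them without any ZsGreen library (adjusted p up to 0.233). Aldoa, the main aldolase of these cells, rose by 0.19 in WT (adjusted p = 0.0119) and 0.18 in I209S P214L (adjusted p = 0.0162); both calls were lost without ZsGreen 3, the first also with only the groups compared in the fit, and the second also without ZsGreen 2 or I209S P214L 2 (adjusted p up to 0.0782 and 0.0892). Aldoc, the brain-type aldolase, was near the detection limit at 0.847, 0.333 and 0.361 CPM in ZsGreen, 0.488, 0.285 and 0.425 in WT, 1.32, 1.00 and 0.262 in P214L and 0.107, 0 and 0.0614 in I209S P214L. The lowest group held 3 counts in all. By counts, ZsGreen exceeded I209S P214L 8.65-fold (exact 95% interval 2.65 to 44.6, counting error only), and the call (adjusted p = 0.0293) was lost in 6 of the other settings, among them without ZsGreen 1 or I209S P214L 2 or 3 (adjusted p up to 0.104).

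Further down the route, the abundant enzyme genes Pgk1, Ldha and Tpi1 fell in WT and in I209S P214L. Pgk1, phosphoglycerate kinase at the first ATP-yielding step (chrX:105230706-105247305, plus strand), was at 710.1, 711 and 701 CPM in ZsGreen, 447, 411 and 388 in WT, 675, 658 and 675 in P214L and 417, 390.0 and 381 in I209S P214L. P214L lay just below ZsGreen and both other groups far below, none overlapping ZsGreen. Pgk1 fell by 0.77 in WT (SE 0.062, adjusted p = 2.67e-08) and by 0.84 in I209S P214L (adjusted p = 7.15e-09) on the log2 scale, and was not called in P214L (log2 -0.08, adjusted p = 0.551). Ldha, the muscle-type lactate dehydrogenase subunit (chr7:46490899-46505051, plus strand), was at 820.1, 806 and 772 CPM in ZsGreen, 601, 522 and 505 in WT, 732, 743 and 738 in P214L and 558, 502 and 495 in I209S P214L. The order of the groups was that of Pgk1, again without overlap against ZsGreen. Ldha fell by 0.56 in WT (adjusted p = 4.57e-06) and by 0.62 in I209S P214L (adjusted p = 1.02e-06), and its log2 change in P214L was -0.12 (95% interval -0.25 to 0.02). Tpi1, triose phosphate isomerase, fell by 0.56 and 0.53 in the same groups (adjusted p = 9.62e-06 and 1.57e-05).

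Other abundant enzymes of the lower route rose, or were not called in WT and I209S P214L. Pkm, pyruvate kinase, rose from 1443 ± 38.5 CPM (SD, n = 3) in ZsGreen to 1855 ± 151 in WT and 1769.8 ± 94.9 in I209S P214L (log2 0.36 and 0.29, adjusted p = 0.000178 and 0.00105). Pgam1, phosphoglycerate mutase, stood at 161 ± 3.60 CPM in ZsGreen and rose to 208.6 ± 9.56 in P214L alone (log2 0.37, adjusted p = 0.00351), with no overlap; it was also higher in P214L than in WT (log2 0.43, adjusted p = 0.000117). Eno1, enolase, was not called in any comparison, with log2 changes against ZsGreen of 0.06, -0.02 and 0.08; it has a near-identical copy, Eno1b, that could share its reads. Gapdh, often taken as a reference gene, was at 21.8, 145 and 15.5 CPM in ZsGreen, 16.8, 18.5 and 121 in WT, 72.00, 22.1 and 82.3 in P214L and 19.2, 25.4 and 20.4 in I209S P214L. ZsGreen 2 and WT 3 stood several times above the rest of their group, and P214L 2 well below the other P214L libraries. No comparison was called, but without a filter on low counts I209S P214L was called lower than each of the other 3 groups, as it was than P214L with only those groups in the fit. Its coefficient of variation reached 120% in ZsGreen, while the median over the 32 members with at least 10 CPM in every library was 6.56%. Gapdh overlaps Iffo1 on the opposite strand and has many processed copies in the mouse genome, so its level here is uncertain.

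**Figure D4:**
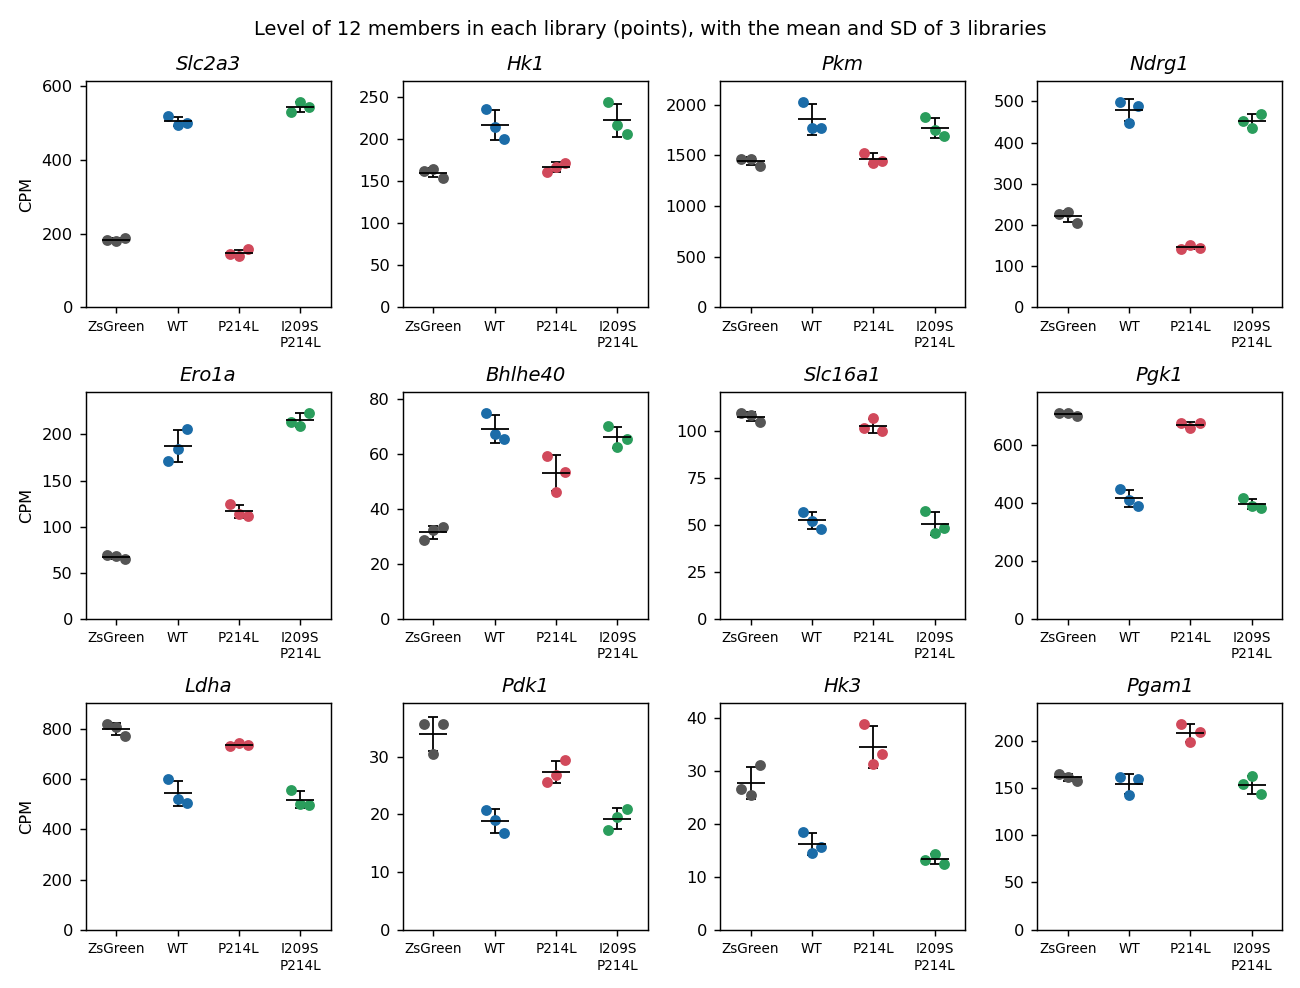
Level in CPM (y axis from 0) of 12 members in each of the 12 libraries, points coloured by group, with the mean and SD of 3 libraries in black. In the top row Slc2a3, Hk1, Pkm and Ndrg1 are high in WT and I209S P214L; Pgk1, Ldha and Slc16a1 are low in the same groups, and Ero1a and Bhlhe40 are lowest in ZsGreen.

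Of the regulators that direct pyruvate and fructose phosphates, 3 of 4 fell with WT and with I209S P214L. Pdk1, a kinase that shuts pyruvate dehydrogenase and a classical HIF target (chr2:71703568-71734202, plus strand), was at 35.6, 30.5 and 35.7 CPM in ZsGreen, 20.8, 19.04 and 16.8 in WT, 25.6, 26.8 and 29.5 in P214L and 17.2, 19.5 and 20.9 in I209S P214L. P214L lay between ZsGreen and the other ETV6 groups, with no overlap on either side. Pdk1 fell by 0.85 in WT (adjusted p = 2.15e-05) and by 0.82 in I209S P214L (adjusted p = 2.72e-05) on the log2 scale, and its change in P214L was -0.31 (adjusted p = 0.157).

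Pdk3, a kinase of the same family, was at 77.6, 77.8 and 72.5 CPM in ZsGreen, 53.7, 48.3 and 53.3 in WT, 70.6, 71.9 and 73.8 in P214L and 51.5, 40.4 and 49.96 in I209S P214L. It fell by 0.55 in WT and 0.68 in I209S P214L on the log2 scale (adjusted p = 8.57e-05 and 8.15e-06), and P214L overlapped ZsGreen. Pfkfb3, which makes the activator of phosphofructokinase, was at 51.9, 47.03 and 43.8 CPM in ZsGreen, 31.99, 32.03 and 39.2 in WT, 50.9, 51.6 and 49.8 in P214L and 32.01, 32.98 and 26.6 in I209S P214L. It too overlapped ZsGreen in P214L alone, and fell by 0.47 in WT and 0.64 in I209S P214L on the log2 scale (adjusted p = 0.00233 and 0.000133). Its paralog Pfkfb4 was not called in any comparison, with levels of 16.3 to 25.2 CPM over the 12 libraries.

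The oxygen-regulated HIF subunit itself was not called against ZsGreen. Hif1a was at 146, 130.4 and 146 CPM in ZsGreen, 122, 140.1 and 154 in WT, 158, 150.0 and 171 in P214L and 137, 138 and 139.6 in I209S P214L. Only P214L, the highest group, did not overlap ZsGreen. The 95% interval of the log2 change was -0.18 to 0.14 in WT, 0.02 to 0.34 in P214L and -0.19 to 0.13 in I209S P214L. HIF is controlled largely through the stability of its protein, which was not measured. Epas1 had counts in 3 libraries, at 0.395 CPM at most.

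Among HIF targets outside glycolysis, 4 carried the increases in WT. Ero1a, an oxidase that forms disulfide bonds in the endoplasmic reticulum (chr14:45520544-45556228, minus strand), was at 69.3, 67.8 and 64.9 CPM in ZsGreen, 172, 185 and 206 in WT, 125, 114 and 112 in P214L and 213.7, 209.3 and 224 in I209S P214L. All ETV6 groups were above ZsGreen, P214L in between, and no group overlapped another. The log2 change was 1.48 (SE 0.076, adjusted p = 8.45e-11) in WT, 0.79 (adjusted p = 5.02e-06) in P214L and 1.68 (adjusted p = 1.29e-11) in I209S P214L, and P214L was 1.61-fold below WT (adjusted p = 1.52e-06).

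Bhlhe40, a transcriptional repressor induced by hypoxia and other signals, was at 28.7, 32.3 and 33.3 CPM in ZsGreen, 74.96, 67.2 and 65.3 in WT, 59.3, 46.2 and 53.2 in P214L and 70.1, 62.5 and 65.5 in I209S P214L. ZsGreen was lowest without overlap and P214L again lay in between. It rose by 1.14, 0.75 and 1.07 on the log2 scale in WT, P214L and I209S P214L (adjusted p = 8.8e-08, 0.000187 and 1.45e-07). The difference of P214L from WT (log2 -0.39, adjusted p = 0.00605) had an adjusted p of 0.0517 without P214L 2.

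Ndrg1, a stress and differentiation gene widely used as a hypoxia marker (chr15:66801167-66841489, minus strand), was at 226, 231 and 206 CPM in ZsGreen, 499, 448 and 489 in WT, 142, 151 and 145 in P214L and 453, 436 and 470.1 in I209S P214L. As with Slc2a3, WT and I209S P214L were above ZsGreen and P214L below, without overlap. It rose by 1.12 (adjusted p = 5.24e-10) and 1.04 (adjusted p = 1.06e-09) and fell by 0.60 in P214L (adjusted p = 2.35e-05) on the log2 scale. Kdm3a, a histone H3 lysine demethylase, rose from 124 ± 7.09 CPM in ZsGreen to 161 ± 5.62 in WT and 169 ± 12.01 in I209S P214L (SD, n = 3; adjusted p = 0.000265 and 4.05e-05), and stood at 128 ± 1.78 in P214L.

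The other HIF targets outside glycolysis gave few calls. Bnip3, a mitophagy receptor, was at 14.8, 17.99 and 13.95 CPM in ZsGreen, 16.2, 19.4 and 28.1 in WT, 18.4, 22.3 and 19.03 in P214L and 16.7, 27.96 and 24.1 in I209S P214L. It was called in I209S P214L alone (log2 0.55, adjusted p = 0.0338) with overlapping libraries, and the call was lost with limma-voom and without ZsGreen 1, ZsGreen 3 or I209S P214L 2 or 3 (adjusted p up to 0.192). In WT its log2 change was 0.45 (adjusted p = 0.0883), and it was called there without WT 1, without both first libraries of WT and I209S P214L, and with no filter on low counts (edgeR, adjusted p down to 0.00696). Vegfa, the blood vessel growth factor, was at 24.6, 26.2 and 27.96 CPM in ZsGreen, 27.3, 23.7 and 24.4 in WT, 30.3, 27.1 and 28.2 in P214L and 26.6, 23.9 and 24.4 in I209S P214L, with 95% intervals of the log2 change of -0.27 to 0.15, -0.09 to 0.33 and -0.28 to 0.14. Its groups overlapped ZsGreen in each case. Bnip3l, a second mitophagy receptor, the oxygen sensor Egln1 and the collagen hydroxylase P4ha1 were not called, with log2 changes against ZsGreen between -0.33 and 0.05. Ankrd37 was low, at 0.427 to 1.54 CPM, and overlaps Ufsp2 on the opposite strand.

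Genes of the same pathways that were not on the list were counted beside the members. Of 85 such genes 61 were tested, and in WT 17 rose and 18 fell, 57.4% of those tested beside 37.7% of all tested genes. In P214L 7 rose and 2 fell (14.8% beside 5.08%), and in I209S P214L 18 rose and 21 fell (63.9% beside 41.5%). By role, the neighbouring carbon routes had 5 rises and 9 falls among 29 tested in WT, the oxygen-sensing genes 4 and 3 among 12, and the other HIF targets 8 and 6 among 20. The named genes here are those of the smallest adjusted p in each direction. In WT the rises were led by Plin2, a lipid droplet coat protein (log2 1.99, adjusted p = 3.05e-12), Hmox1, heme oxygenase (1.89, adjusted p = 1.13e-10), Taldo1 of the pentose phosphate route (0.96, adjusted p = 1.2e-08) and Os9, an endoplasmic reticulum lectin (0.92, adjusted p = 4.07e-08). The falls were led by the transferrin receptor Tfrc (-0.85, adjusted p = 5.9e-09), the mitochondrial protein Fam162a (-1.14, adjusted p = 9.07e-06), the mitochondrial pyruvate carrier subunit Mpc2 (-0.89, adjusted p = 1.23e-05) and the chaperone Hsp90ab1 (-0.38, adjusted p = 1.77e-05). In I209S P214L the rises were Plin2 (2.11), Hmox1 (2.30), Taldo1 (0.92) and Os9 (0.90), and the falls Tfrc (-0.89), Mpc2 (-0.999), Fam162a (-1.24) and Hsp90ab1 (-0.39), all called. In P214L, Hmox1 (0.71), the chemokine receptor Cxcr4 (0.70), Pgd of the pentose phosphate route (0.49) and Plin2 (0.42) rose with adjusted p from 0.000274 to 0.00267, and Pgm2 fell (-0.30, adjusted p = 0.0139).

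Between the constructs, P214L had 14 of these genes higher and 18 lower than WT (52.5% of those tested, beside 29.2% of all tested genes), and I209S P214L had 15 higher and 18 lower than P214L (54.1% beside 33.0%); none was called between I209S P214L and WT. Plin2, Hmox1, Taldo1 and Os9 led the genes lower in P214L than in WT, and Tfrc, Selenbp1, Mpc2 and Car12 those higher. Tfrc, for example, was at 179, 186 and 186 CPM in WT and 304, 284 and 319.6 in P214L, without overlap. Selenbp1 differed by 1.24 (adjusted p = 4.24e-06) and Car12, a carbonic anhydrase, by 0.92 (adjusted p = 3.2e-05) on the log2 scale.

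Within groups, WT 1 was the highest of its 3 libraries for 22 of the 36 tested members and I209S P214L 1 for 19. These 2 libraries also held the smallest shares of 18S ribosomal counts, 1.58% and 1.35%, while the other 10 libraries held 2.92% to 5.90%. Without both, 22 members were called in WT and 22 in I209S P214L against ZsGreen, beside 21 and 22 with them. Without ZsGreen 1, the library apart on the second component, 20 members were called in WT, 5 in P214L and 21 in I209S P214L, beside 21, 6 and 22.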

How the data were processed

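Poly(A)-selected RNA of 12 Ba/F3 libraries was sequenced, 3 in each of 4 groups taken from the sample titles. Per the file headers, the deposited table gives a raw read count and an FPKM value per gene and library, with gene length and position. The submitters' processing notes name HISAT2 2.0.5, featureCounts 1.5.0-p3 and build mm39; the annotation release and strand setting are not given in the sources used here, and the protocol in the labels allows for libraries with and without strand marks. The deposited FPKM values were 0.967 to 1.01 times those recomputed from count, gene length and library total, and were used for that check alone. Of 56748 genes, 30009 had no count in any library.

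Counts were tested with edgeR 4.0.16 (R 4.3.3): filterByExpr over the 4 groups, TMM factors, 1 mean per group fitted on all 12 libraries, the quasi-likelihood test, and Benjamini-Hochberg adjustment over 14794 tested genes. A gene was called at an adjusted p under 0.05. The 95% intervals are taken from the SE with the normal quantile, so they are somewhat narrower than the quasi-likelihood test implies. Eno1b in WT against ZsGreen, for example, had an interval of 0.01 to 0.64 but an unadjusted p of 0.0587 by that test. The 6 pairs of groups were all compared. The procedure was tested on simulated counts with known changes. Alternatives were RLE factors, library totals, no filter, DESeq2 1.42.0, limma-voom (limma 3.58.1), only the groups compared, a replicate block, and leaving out single libraries or both first libraries of WT and I209S P214L.

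The members and the lists beside them were chosen with earlier results of these data known. Libraries are given for members called with an absolute log2 change of at least 0.58, and always for Hif1a, Slc2a1, Hk2, Gapdh, Ldha, Vegfa, Bnip3 and Egln3; other members are given by range and count. Other pathway genes are named by smallest adjusted p, up to 4 a direction; some genes of these lists are not reported here. Same-numbered libraries of different groups deviated together (r over 0.1) in 2 of 18 pairs. Both joined WT with I209S P214L, at r = 0.528 for the first libraries and 0.254 for the third. Differently numbered libraries of these groups ran from r = -0.392 to 0.161. The numbers were not taken as pairs in the main fit, and with a replicate block no member was called between these groups either. Depth was 14301683 to 18607595 counts; intervals on counts cover counting error only.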

Additional observations from a re-analysis of the deposited data

Results flagged for a closer look

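Slc2a3 and Ndrg1 moved in opposite directions in WT and in P214L against the same ZsGreen libraries, each change being called on its own. A call in the direct test of P214L against WT was part of the rule that picked them, so that test is no separate check. Slc2a3 was 1.46 on the log2 scale in WT and -0.32 in P214L, and the direct test of P214L against WT gave -1.78 (edgeR, adjusted p = 1.12e-12), with all 3 P214L libraries below all 3 WT libraries. Ndrg1 was 1.12 in WT and -0.60 in P214L, and the direct test gave -1.72 (adjusted p = 4.45e-12), again with no overlap.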

How the results depend on the processing

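Of 88 calls, counted as a member in a comparison, 69 held in all 20 other settings, 19 were lost in at least 1, and 0 changed direction. Leaving out each library in turn gave 17 to 22 called members for WT, 5 to 6 for P214L and 18 to 23 for I209S P214L against ZsGreen, 16 to 20 for P214L against WT, 17 to 22 for I209S P214L against P214L, and 0 to 0 for I209S P214L against WT. With no filter on low counts the last count was 1 (Gapdh); the cause was not tested. With the replicate number as a block, the counts were 21, 6, 22, 19, 23 and 0 in the same order, beside 21, 6, 22, 17, 22 and 0. DESeq2 gave 21, 6, 23, 18, 22 and 0, and limma-voom 21, 6, 20, 17, 21 and 0. Calls lost besides those named in the report were, for I209S P214L against P214L, Gpi1 (without P214L 2 or I209S P214L 2 or 3, adjusted p up to 0.0692), Pfkl (with library totals only and without any P214L library or I209S P214L 2 or 3, up to 0.209), Pfkm (without P214L 2, 0.0986), Aldoc (without P214L 1, 0.0548) and Bhlhe40 (without P214L 2 or I209S P214L 1, up to 0.118). Of 60 pairs of a named member and a comparison that were not called, 13 were called in at least 1 other setting; besides those in the report these were, for P214L against WT, Slc2a1 (without WT 1), Pfkm (without P214L 3) and Hif1a (replicate block and without WT 3), and, for I209S P214L against P214L, Hif1a (in 5 settings, among them the replicate block and without WT 1 or WT 3). Depth limits Aldoc, Ankrd37, Slc16a3 and the 5 untested members. Shares within a family depend on the division by gene length. By raw counts the mean share of Slc2a3 was 79.3% in ZsGreen and 93.3% in WT, and that of Hk1 46.4% and 59.5%.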
